A study of Mus musculus with 12 samples.

Results

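The genes described here are 10 genes of oxygen sensing and of the vascular endothelial growth factors (VEGF), measured by RNA sequencing in mouse heart ventricles. They were chosen by name from a table of 51912 genes: Hif1a, Epas1, Hif3a and Arnt, the subunits of the hypoxia-inducible factors (HIF), Egln1, Egln2 and Egln3, the HIF prolyl hydroxylases, Vhl, and the growth factors Vegfa and Vegfb. All 10 were in the table and all 10 passed the filter on low values that left 13865 genes for testing. The libraries came from LCHADD females, WT females, LCHADD males and WT males, with 3 libraries in each group. LCHADD stands for a deficiency of long-chain 3-hydroxyacyl-CoA dehydrogenase, an enzyme that mitochondria need to burn long-chain fatty acids. The tissue was fresh and untreated, and age, strain and the altered allele are not stated in the labels used here. The labels number the libraries of a group but do not say that each is a separate mouse, so the p-values measure the spread between these libraries.

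The 12 libraries held between 15613668 and 23174936 reads. Mitochondrial genes took 33.5% ± 3.82 of the reads in LCHADD females and 27.9% ± 0.416 in WT females, and 35.4% ± 0.917 in LCHADD males and 30.7% ± 1.76 in WT males (SD, n = 3 each). Hadha, which encodes the enzyme subunit with this dehydrogenase activity, lay between 23343 and 28083 normalised reads in the LCHADD libraries and between 21430.0 and 25845 in the WT libraries. The labels do not name the altered gene, so these values do not check the genotypes. The ventricle markers of cardiomyocytes were abundant in every library, while Sln and Myl7, which mark atrial muscle, stayed below 6 normalised reads, and the third atrial marker, Myl4, was at 15.5 to 32.5. LCHADD female 2 had the lowest summed cardiomyocyte markers, 500682 normalised reads, against 934146 to 1004700.0 over the WT libraries.

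In cells with enough oxygen, the prolyl hydroxylases modify the HIF alpha subunits, and the product of Vhl then binds the modified protein and directs it to destruction. When oxygen falls, the alpha subunits persist, pair with Arnt and activate genes for glycolysis, blood vessel growth and the hydroxylases themselves. This control acts on the protein, so transcript levels of Hif1a or Epas1 do not report HIF activity. Epas1, which encodes HIF-2 alpha, is known to be prominent in endothelial cells. In the heart, Vegfa acts on vessels through the receptor Kdr, and Vegfb, which binds Flt1, is abundant in muscle cells.

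HIF dimers bind short sites with the core ACGTG or GCGTG, and so the stretches upstream of 4 of the genes whose transcripts differed in the same direction in both sexes, 1 higher and 3 lower, are shown for context. Each is the 250 bases before the RefSeq start on build GRCm38.p6, written 5′ to 3′ on the strand of the gene, with both cores on either strand in capitals. The Hif1a stretch is chr12:73907617-73907866 on the plus strand, Egln1 is chr8:124949255-124949504 on the minus strand, Egln3 is chr12:54203875-54204124 on the minus strand, and Vegfb is chr19:6987652-6987901 on the minus strand.
Hif1a: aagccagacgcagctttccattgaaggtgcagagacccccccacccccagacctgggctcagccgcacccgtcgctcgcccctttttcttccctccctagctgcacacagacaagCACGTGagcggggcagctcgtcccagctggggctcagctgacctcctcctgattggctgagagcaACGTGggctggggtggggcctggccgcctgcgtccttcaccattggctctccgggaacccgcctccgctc
Egln1: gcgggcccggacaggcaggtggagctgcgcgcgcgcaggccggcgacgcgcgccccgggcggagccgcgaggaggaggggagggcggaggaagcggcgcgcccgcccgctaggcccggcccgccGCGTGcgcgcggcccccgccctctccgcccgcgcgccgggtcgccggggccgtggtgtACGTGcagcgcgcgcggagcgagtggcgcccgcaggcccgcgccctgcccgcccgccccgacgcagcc
Egln3: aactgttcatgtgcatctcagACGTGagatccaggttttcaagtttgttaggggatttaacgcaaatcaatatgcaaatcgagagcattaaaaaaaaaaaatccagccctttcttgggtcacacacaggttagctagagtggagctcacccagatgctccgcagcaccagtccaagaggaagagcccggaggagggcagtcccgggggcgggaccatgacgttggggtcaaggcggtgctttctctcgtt
Vegfb: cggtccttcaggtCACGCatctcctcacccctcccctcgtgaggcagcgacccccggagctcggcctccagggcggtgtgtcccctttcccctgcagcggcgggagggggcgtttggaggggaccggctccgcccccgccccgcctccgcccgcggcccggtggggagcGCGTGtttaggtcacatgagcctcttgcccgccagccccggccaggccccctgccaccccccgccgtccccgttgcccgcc
The Hif1a stretch held 3 ACGTG matches, of which 1 pair is the same palindrome read on both strands, and no GCGTG. Egln1 held 1 of each core, Egln3 held 1 ACGTG and Vegfb held 2 GCGTG. Of the 10 genes, 9 have a RefSeq entry in the promoter table used, Epas1 being the one without, with 11 stretches between them, and 8 of these 9 genes held a core in at least 1 stretch. Vhl held none, and the Vegfa stretch at the upstream start held none. Vegfa counts only through its other stretch, which held 2 matches but lies downstream of that start, so not ahead of the whole gene. Among all 32851 promoter stretches of this length, 16.6% held ACGTG, 28.2% held GCGTG and 38.6% held either. These shares count stretches, while the 8 of 9 counts genes with a match in any of their stretches. The share of G and C bases ran from 48% to 86% over the 11 stretches and was not matched, so no enrichment is read from these counts. A match is a run of letters, and binding was not measured.

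Hif1a transcripts were more abundant in LCHADD ventricles of both sexes, while Epas1, Egln1, Egln3 and Vegfb transcripts were less abundant in both sexes. Vegfa, Arnt and Vhl did not pass the test in any comparison of the genotypes. With the sexes averaged, 6 of the 10 genes passed the limma test across all genes (Benjamini-Hochberg adjusted p under 0.05), 1 higher and 5 lower, where 40.8% of all tested genes passed, 20.3% higher and 20.6% lower. The median log2 change of the 10 genes was -0.26, and that of all tested genes was -0.0019. The libraries of both genotypes did not overlap for 5 of the 10 genes, 1 higher and 4 lower in LCHADD, against 19.7% of all tested genes, 9.82% higher and 9.91% lower. Fold changes are on the scale of log2(normalised reads + 1), as LCHADD minus WT.

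**Figure D1:**
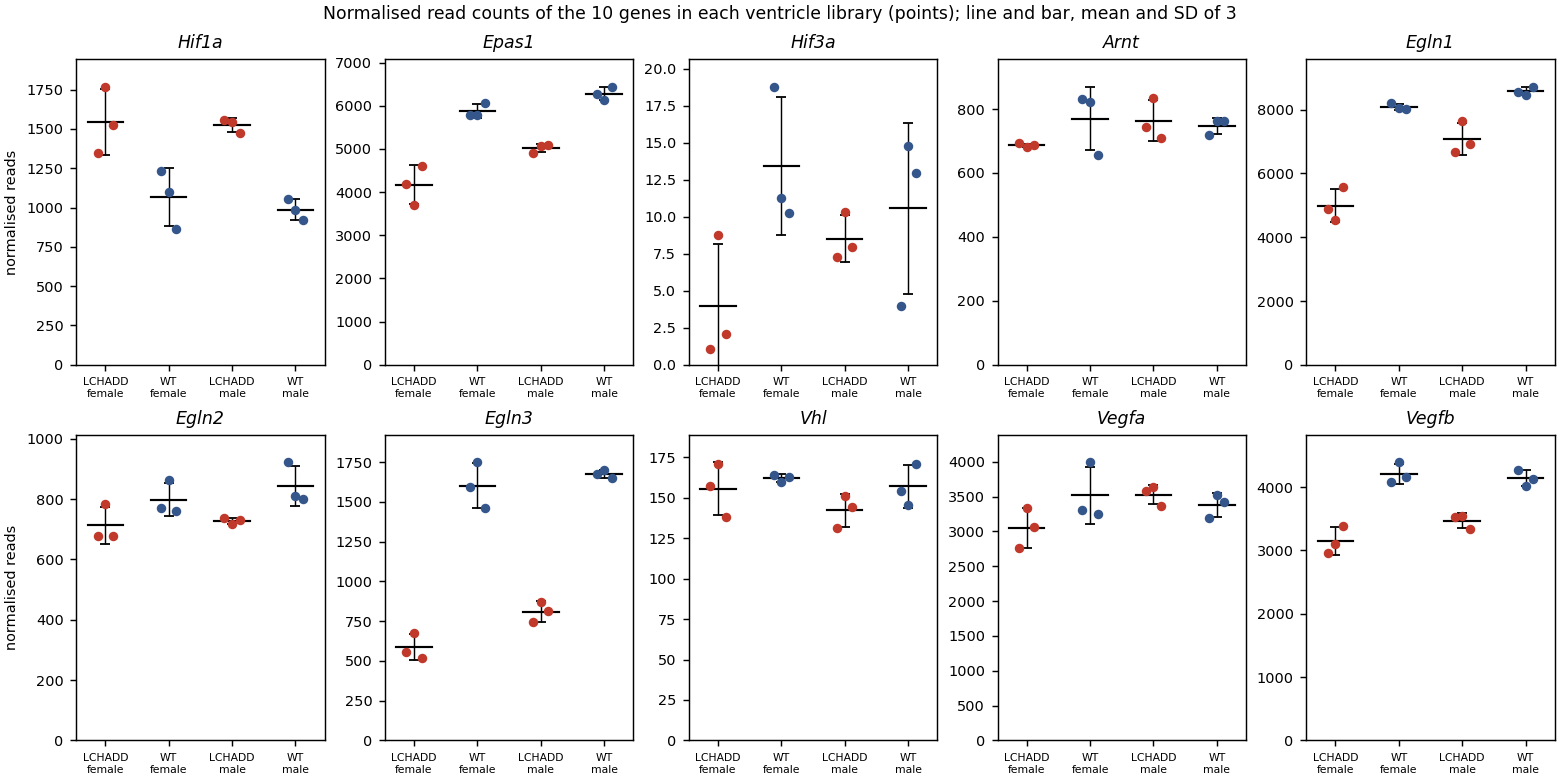
Normalised reads of the 10 genes (vertical axes from 0, one scale per gene) in the 4 groups of 3 libraries, LCHADD in red and WT in blue, with points for libraries, a line for the mean and a bar for the SD (the Hif3a bar in LCHADD females is cut at 0). The LCHADD points of Egln3 lie between 519.7 and 870.1, all below the WT points, and those of Hif1a lie between 1349 and 1767, all above the WT points.

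Among the HIF subunits, Hif1a and Epas1 moved in opposite directions. Hif1a, which encodes HIF-1 alpha (ENSMUSG00000021109), had 1349, 1767 and 1522 normalised reads in LCHADD females, against 1230.2, 1101 and 864 in WT females. The male libraries had 1555, 1541 and 1471 in LCHADD, against 1052, 985 and 919 in WT. Every LCHADD library was above every WT library, and the lowest LCHADD value and the highest WT value both belonged to females numbered 1. Hif1a rose by 0.59 on the log2 scale with the sexes averaged (SE 0.084, limma adjusted p = 6.12e-05). The change was 0.54 in females (adjusted p = 0.0026) and 0.63 in males (adjusted p = 0.00246). In the annotation used, a small share of the Hif1a exon bases lies under an antisense gene, Gm15283, which averaged 12.6 normalised reads, and reads from the shared bases cannot be told apart unless strand was used in counting.

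Epas1 (ENSMUSG00000024140) had 4199, 3700.2 and 4600.4 normalised reads in LCHADD females, against 5778, 5781 and 6072 in WT females. In males, Epas1 had 4909, 5065 and 5090.25 in LCHADD, against 6274, 6132 and 6439 in WT. All 6 LCHADD libraries were below all 6 WT libraries, and the LCHADD females were the lowest. Epas1 fell by 0.41 on the log2 scale with the sexes averaged (SE 0.053, limma adjusted p = 2.17e-05), by 0.50 in females (adjusted p = 0.000129) and by 0.32 in males (adjusted p = 0.00887). With each gene divided by its exon length, Hif1a made up 24.2% ± 3.49 of the summed alpha subunit transcripts in LCHADD libraries and 13.8% ± 1.93 in WT libraries (SD, n = 6 each). Epas1 nevertheless remained the most abundant alpha subunit per length in every library, at 68.7% to 78.4% in LCHADD and 83.0% to 88.0% in WT.

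Hif3a, whose product can limit the other factors, was close to the limit of detection. The 3 libraries of a group together held 12 reads in LCHADD females and 49 in WT females, and 23 in LCHADD males and 31 in WT males. Single libraries ranged from 1.09 to 8.74 normalised reads in LCHADD females, against 10.3 to 18.8 in WT females, without overlap, and from 7.29 to 10.3 in LCHADD males, against 3.98 to 14.8 in WT males, with overlap. The female change of -1.81 passed (SE 0.59, limma adjusted p = 0.0266), but it was lost without a filter on low values, with the female libraries alone, and without LCHADD female 1 or 3 or WT female 1 or 2, with adjusted p of 0.00277 to 0.112 over all alternatives. The average of both sexes, -0.97, did not pass (adjusted p = 0.0743), though it did without LCHADD female 2 (adjusted p = 0.0109) or WT male 1 (adjusted p = 0.027), and it ranged up to 0.168.

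Arnt, the shared partner of the alpha subunits, did not separate the genotypes. It ranged from 682.6 to 835 normalised reads in LCHADD and from 656 to 833 in WT, with a log2 difference of -0.06 (SE 0.068, limma adjusted p = 0.483). Its LCHADD females were alike at 683 to 692, while WT female 3, at 656, lay apart from the other WT females at 822 and 833. Without that library the female change was -0.27 and passed (adjusted p = 0.0381), and over all alternatives the adjusted p reached 0.552.

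Of the hydroxylases, Egln3 had the largest change of the 6 genes that passed with the sexes averaged. Egln3, which encodes PHD3 and is itself a known HIF target (ENSMUSG00000035105), had 559, 677 and 519.7 normalised reads in LCHADD females, against 1595, 1749 and 1464 in WT females. Among males the values were 742, 870.1 and 817 in LCHADD, against 1674, 1703 and 1650.1 in WT. The highest LCHADD library, at 870.1, lay below the lowest WT library, at 1464, and all LCHADD females were below all LCHADD males. Egln3 fell by 1.25 on the log2 scale (SE 0.071, limma adjusted p = 8.91e-09), by 1.46 in females (adjusted p = 1.57e-07) and by 1.05 in males (adjusted p = 7.38e-06). Its mean in LCHADD was 0.425 times that in WT.

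Egln1, which encodes PHD2, regarded as the main hydroxylase of HIF-1 alpha (ENSMUSG00000031987), had 4877, 4534 and 5568 normalised reads in LCHADD females, against 8209, 8039 and 8022 in WT females. In males, Egln1 had 6664, 7635 and 6932 in LCHADD, against 8552, 8474 and 8717 in WT. The genotypes did not overlap, and the LCHADD females again lay below the LCHADD males. Egln1 fell by 0.49 on the log2 scale with the sexes averaged (SE 0.055, limma adjusted p = 5.97e-06) and by 0.70 in females (adjusted p = 8.83e-06). In males it fell by 0.28 (adjusted p = 0.0233), and this call was lost with no filter on low values and without LCHADD male 1, LCHADD male 3 or any 1 of the WT males, with adjusted p of 0.00268 to 0.111 over all alternatives.

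Egln2, which encodes PHD1, had the smallest difference of the hydroxylases. It ranged from 677 to 785 normalised reads in LCHADD, against 761 to 921 in WT, with overlap in females and none in males. The average change of -0.19 passed (SE 0.062, limma adjusted p = 0.0261), while neither sex alone did (adjusted p = 0.17 in females and 0.125 in males). The call for the average was lost when libraries were scaled by nuclear-gene reads and without LCHADD female 1, WT female 2 or WT male 1, with adjusted p of 0.00474 to 0.0769 over all alternatives. The female change passed without LCHADD female 2 (-0.23, adjusted p = 0.0486). Per length, Egln3 made up 11.9% ± 1.39 of the summed hydroxylase transcripts in LCHADD and 19.1% ± 0.854 in WT, and Egln2 made up 12.0% ± 2.22 in LCHADD and 9.08% ± 0.524 in WT (SD, n = 6 each).

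Vhl, the recognition subunit of the ubiquitin ligase, ranged from 131 to 171 normalised reads in LCHADD and from 145 to 171 in WT. The genotypes overlapped, and the log2 change of -0.10 did not pass (SE 0.088, limma adjusted p = 0.377).

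Of the growth factors, Vegfb fell in both sexes and Vegfa did not pass. Vegfb (ENSMUSG00000024962) had 2959, 3106 and 3384 normalised reads in LCHADD females, against 4077, 4389 and 4159 in WT females. In males it had 3533, 3541 and 3331 in LCHADD, against 4274, 4023 and 4129 in WT. Every LCHADD library was below every WT library. Vegfb fell by 0.34 on the log2 scale (SE 0.048, limma adjusted p = 5.53e-05), by 0.42 in females (adjusted p = 0.000259) and by 0.26 in males (adjusted p = 0.0187). The male call was lost without LCHADD male 3 (adjusted p = 0.0684), without WT male 1 (adjusted p = 0.0825) and without WT male 3 (adjusted p = 0.0595), and over all alternatives the adjusted p went down to 0.00393.

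Vegfa (ENSMUSG00000023951) had 2755, 3329 and 3069 normalised reads in LCHADD females, against 3310.2, 3989 and 3250.4 in WT females. In males it had 3586, 3633 and 3368 in LCHADD, against 3189, 3524 and 3416 in WT. The genotypes overlapped in both sexes, and WT female 2 was the highest library. The log2 change was -0.07 with the sexes averaged (SE 0.063, limma adjusted p = 0.405), -0.20 in females (adjusted p = 0.0932) and 0.06 in males (adjusted p = 0.678). Without LCHADD female 2 the female change was -0.27 and passed (adjusted p = 0.0238), as it did when WT female 3 was left out as well (-0.32, adjusted p = 0.0129), and over all alternatives the adjusted p reached 0.396. Vegfa was 27.1% ± 1.25 of the summed length-adjusted transcripts of both ligands in LCHADD and 23.6% ± 1.31 in WT (SD, n = 6 each).

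Within females, 6 of the 10 genes passed, 1 higher and 5 lower, where 33.8% of all tested genes passed, 16.7% higher and 17.2% lower. Within males 5 passed, 1 higher and 4 lower, where 15.5% of tested genes passed, 7.71% higher and 7.77% lower. Groups of 3 did not overlap for 6 of the genes in females, where this held for 44.5% of tested genes, and for 6 in males, where it held for 38.9%. The female and male changes were then compared directly, as the female change minus the male change. None of the 10 genes passed this test by limma, where 0.00721% of tested genes did. At an unadjusted p under 0.05 there were 2, Egln1 and Egln3, where 9.83% of tested genes had such a p. Of the 10 genes, edgeR called 0, where it called 0.0144% of all genes, and DESeq2 called 1, where it called 1.83% of the genes to which it gave an adjusted p. For Egln1 the difference was -0.42 (SE 0.11, limma adjusted p = 0.21), which DESeq2 called (adjusted p = 0.0379) and limma called without LCHADD female 3 (adjusted p = 0.0195), with adjusted p up to 0.536 over all alternatives, and for Egln3 it was -0.41 (SE 0.14, limma adjusted p = 0.362).

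**Figure D2:**
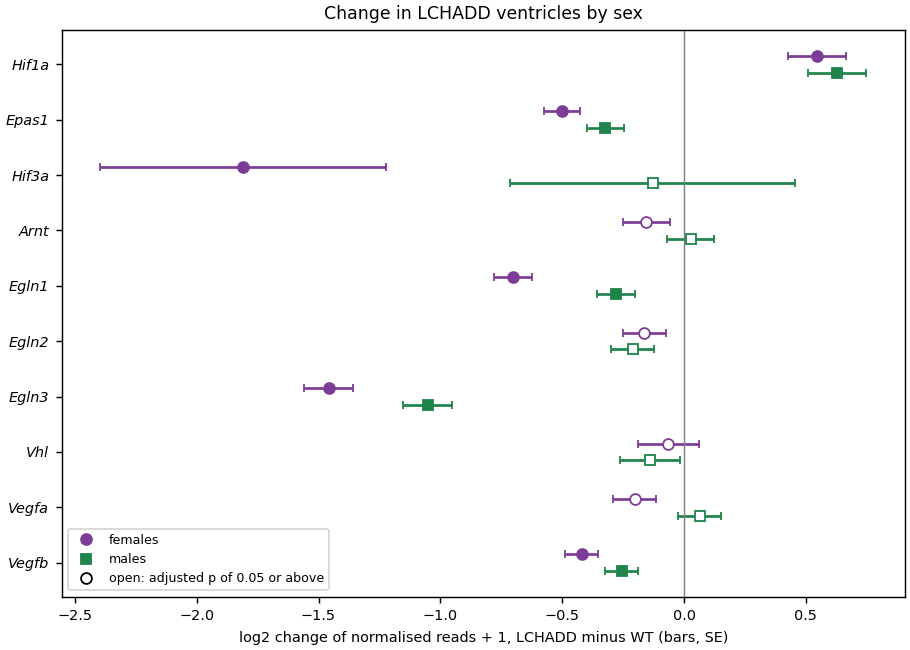
Log2 change of normalised reads + 1, LCHADD minus WT (horizontal axis, bars show the SE), for each gene in females (circles) and males (squares), filled where the adjusted p is under 0.05. Hif1a lies right of 0 in both sexes, at 0.54 and 0.63, and the female points of Egln1 and Egln3, -0.70 and -1.46, lie left of the male points.

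Females were also set against males within each genotype. In LCHADD, 3 of the 10 genes passed, all lower in females, where 5.77% of tested genes passed, 3.12% lower: Egln1 by -0.51 (SE 0.078, limma adjusted p = 0.0018), Egln3 by -0.47 (SE 0.1, adjusted p = 0.0138) and Epas1 by -0.27 (SE 0.075, adjusted p = 0.0437). With the 6 LCHADD libraries alone in the fit, limma called 0 of the 10. The Epas1 call was lost in 17 of 23 alternatives, among them leaving out any 1 library except LCHADD female 3, and the Egln3 call was lost without LCHADD female 1 (adjusted p = 0.0525) or LCHADD male 2 (adjusted p = 0.0889). In WT, limma called 0 of the 10, where 0.245% of tested genes passed, and 0 had an unadjusted p under 0.05, where 7.35% of tested genes did. In this comparison edgeR called 0 of the 10 and 0.339% of all genes, and DESeq2 called 0 of the 10 and 0.628%.

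The order of the transcripts per kb of exon placed Vegfb and Egln1 at the top in both genotypes. In LCHADD libraries the mean was 2062 normalised reads per kb for Vegfb, 1679 for Egln1, 822 for Epas1 and 768 for Vegfa, and Vegfb overlapped with Egln1 and Epas1 with Vegfa. In WT libraries the means were 2601 for Vegfb, 2319 for Egln1, 1087 for Epas1 and 804 for Vegfa, with no overlap between neighbours. Further down, Egln3 at 262 normalised reads per kb, Hif1a at 260.2 and Egln2 at 257 overlapped in LCHADD, whereas in WT the order was Egln3 at 616, Egln2 at 293 and Hif1a at 174, without overlap. Arnt at 90.6, Vhl at 49.7 and Hif3a at 0.932 closed the order in LCHADD, as they did in WT at 94.7, 53.3 and 1.79. Exon length is the union over annotated transcripts, so a gene with long alternative exons appears lower on this scale.

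**Figure D3:**
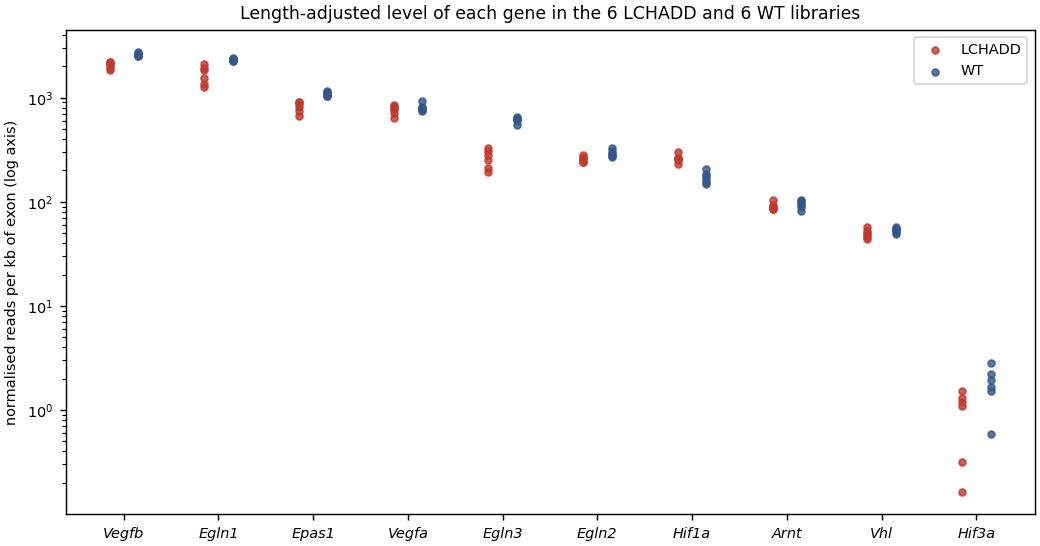
Normalised reads per kb of exon (vertical log axis) for the 10 genes, with 6 LCHADD points left of 6 WT points, genes ordered by their WT mean. Egln3, Egln2 and Hif1a overlap in LCHADD, at 257 to 262 on average, and separate in WT, at 616, 293 and 174.

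The other genes of the pathway were counted in lists drawn up from background knowledge. Of 16 other regulators of oxygen sensing, 15 were tested (not Arnt2), and with the sexes averaged 5 rose and 3 fell, where 20.3% of tested genes passed higher and 20.6% lower. The list median was 0.08 on the log2 scale. Those that rose included chaperones and an adaptor that bind HIF-1 alpha. Rack1, an adaptor reported to promote degradation of HIF-1 alpha, averaged 10446 normalised reads in LCHADD and 5684 in WT, a log2 change of 0.84 (SE 0.067, limma adjusted p = 2.21e-07). Hsp90ab1 averaged 30771 in LCHADD and 21067 in WT, a change of 0.54 (SE 0.055, adjusted p = 2.37e-06). Hsp90aa1 changed by 0.81 (SE 0.18, adjusted p = 0.00204), and Cul2, the scaffold of the ligase that holds the Vhl product, by 0.32 (SE 0.069, adjusted p = 0.00184).

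P4htm, a transmembrane prolyl hydroxylase of the same enzyme class, averaged 107 normalised reads in LCHADD and 204 in WT and fell by 0.90 on the log2 scale (SE 0.094, limma adjusted p = 3.05e-06), with no overlap between genotypes. Ep300, a coactivator, fell by 0.21 (SE 0.058, adjusted p = 0.00838). Outside the rule for naming genes, and chosen after their values were seen, are the other 2 that passed. Cited2, an inhibitor that competes for Ep300, rose by 0.35 (SE 0.11, adjusted p = 0.0218), and Hif1an, the asparaginyl hydroxylase FIH that blocks coactivator binding, fell by 0.13 (SE 0.046, adjusted p = 0.0355). The Hif1an call was lost in 13 of 22 alternatives, among them scaling by nuclear-gene reads (adjusted p = 0.124), the replicate block and leaving out any 1 library except LCHADD female 3, LCHADD male 2 or WT male 3. The Cited2 call was lost without LCHADD female 1, WT female 3, LCHADD male 1, LCHADD male 2 or WT male 3, with adjusted p of 0.0057 to 0.0606 over all 22 alternatives. The other ligase subunits Elob, Eloc and Rbx1 had log2 differences of 0.05, 0.08 and 0.08 and did not pass.

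Of 41 other known HIF targets, 37 were tested (not Aldoc, Car9, Car12 or Epo). Of these, 12 rose and 8 fell, where 20.3% of tested genes passed higher and 20.6% lower. The list median was -0.03. The list leaves out the 10 genes themselves and the genes listed as vascular signals. Egln3 and Apln, both known HIF targets that fell, are therefore not in these counts. Neither are Egln1, which fell, and Vegfa, which did not pass. Glycolytic genes were found on both sides. Ldha, which encodes the lactate dehydrogenase A subunit, averaged 6169 normalised reads in LCHADD and 11419.5 in WT, fell by 0.93 on the log2 scale (SE 0.084, limma adjusted p = 6.75e-07), and no LCHADD library overlapped with WT. By contrast, Pfkp, a phosphofructokinase, averaged 1243 in LCHADD and 709.7 in WT, a change of 0.80 (SE 0.081, adjusted p = 2.26e-06). Hk1, a hexokinase, changed by 0.59 (adjusted p = 3.56e-05) and Pgk1, phosphoglycerate kinase, by 0.36 (adjusted p = 2.58e-05).

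Outside glycolysis, Hmox1, heme oxygenase 1, averaged 274 normalised reads in LCHADD and 139 in WT, a change of 1.02 (SE 0.15, limma adjusted p = 6.4e-05), with overlap between genotypes. Bnip3, a mitophagy receptor, fell by 0.39 (SE 0.056, adjusted p = 6.64e-05). Aldoa, Tpi1 and Hk2, the most abundant targets that did not pass, had log2 differences of 0.10, 0.06 and -0.14. Without LCHADD female 2, Hk2 passed (-0.24, adjusted p = 0.00153), and with scaling by nuclear-gene reads Aldoa did (0.14, adjusted p = 0.0443). In females 11 targets passed higher and 5 lower, where 16.7% of tested genes passed higher and 17.2% lower. In males 7 passed higher and 2 lower, where 7.71% passed higher and 7.77% lower.

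**Figure D4:**
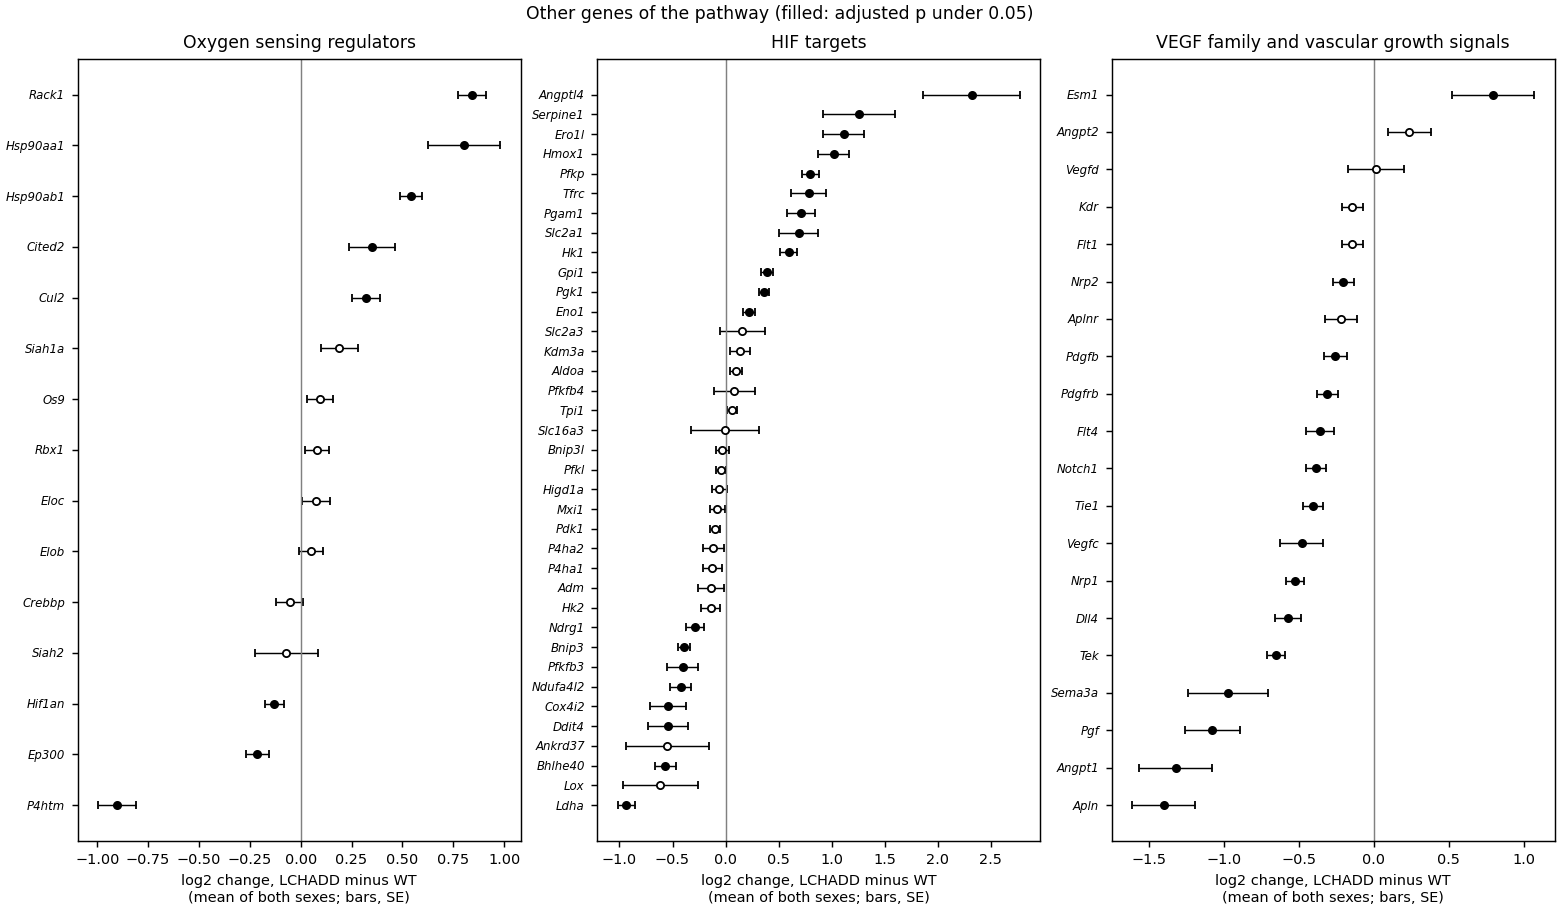
Log2 change with the sexes averaged, LCHADD minus WT (horizontal axes, bars show the SE), for the tested genes of 3 lists, filled where the adjusted p is under 0.05. The HIF targets lie on both sides of 0, with 12 passing to the right and 8 to the left, while in the VEGF and vascular list 14 pass to the left and 1 to the right.

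All 20 other genes of the VEGF family and of vascular growth signals were tested. With the sexes averaged 1 rose and 14 fell, where 20.3% of tested genes passed higher and 20.6% lower. The list median was -0.37. Tek, the angiopoietin receptor, averaged 558 normalised reads in LCHADD and 877 in WT and fell by 0.65 on the log2 scale (SE 0.063, limma adjusted p = 1.35e-06). Nrp1, a coreceptor for VEGF, fell by 0.53 (SE 0.06, adjusted p = 7.21e-06), Dll4, a Notch ligand of tip cells, by 0.57 (SE 0.087, adjusted p = 0.000106), Tie1 by 0.40 (SE 0.066, adjusted p = 0.00018) and Notch1 by 0.39 (SE 0.066, adjusted p = 0.000267). For these 5 genes every LCHADD library was below every WT library. The summed endothelial markers, of which Tie1 is one, were lower too, at 8291 to 9627 normalised reads in LCHADD and 10387 to 11528 in WT. In females 0 of the 20 listed genes passed higher and 9 lower, where 16.7% of tested genes passed higher and 17.2% lower. In males 1 passed higher and 8 lower, where 7.71% passed higher and 7.77% lower.

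Apln, the ligand apelin and a known HIF target, had 72.2, 36.9 and 133 normalised reads in LCHADD females, against 329, 312 and 267 in WT females. In males it had 258, 237 and 191 in LCHADD, against 386, 367 and 378 in WT. The genotypes did not overlap, though LCHADD male 1 lay just under WT female 3. Apln fell by 1.40 on the log2 scale (SE 0.21, adjusted p = 9.6e-05). The VEGF receptors Kdr and Flt1 both had a log2 difference of -0.14 and did not pass (adjusted p = 0.11 and 0.117), and neither did Aplnr at -0.22 (adjusted p = 0.12). Without LCHADD female 2, Kdr passed at -0.19 (adjusted p = 0.0121) and Flt1 at -0.18 (adjusted p = 0.0364), and without WT female 2 Aplnr passed at -0.32 (adjusted p = 0.00658).

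The remaining ligands were scarce, and they and Esm1 are named after their values were seen. Pgf, placental growth factor, ranged from 18.4 to 33.0 normalised reads in LCHADD and from 43.0 to 76.4 in WT, without overlap, and fell by 1.08 (SE 0.18, adjusted p = 0.000292). Vegfc, a ligand for lymphatic vessels, fell by 0.48 (SE 0.14, adjusted p = 0.0142), and Vegfd did not pass, with a log2 difference of 0.02 (SE 0.19, adjusted p = 0.958). Esm1, an endothelial proteoglycan gene, was the gene that rose, by 0.80 (SE 0.27, adjusted p = 0.0305), at a mean of 38.2 in LCHADD and 23.5 in WT. Its call was lost in 10 of 21 alternatives, among them edgeR (adjusted p = 0.0582), no filter on low values and leaving out any 1 of LCHADD female 1, WT female 2, WT female 3, LCHADD male 1, LCHADD male 2, WT male 1 and WT male 2, with adjusted p of 0.00364 to 0.0898 over those alternatives. A filter at 50 left Esm1 untested.

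Marker genes of most ventricle cell types were also lower in LCHADD, with the sexes averaged. Of the endothelial markers 6 of 8 fell, and of the cardiomyocyte markers 6 of 7 fell, with sums of 500682 to 879013 in LCHADD and 934146 to 1004700.0 in WT. Among the rest, 6 of 6 fibroblast markers, 5 of 6 tested pericyte and smooth muscle markers and 4 of 4 erythroid markers fell, where 20.6% of tested genes passed lower. In females 6 of 7 cardiomyocyte, 4 of 8 endothelial, 6 of 6 fibroblast, 2 of 6 pericyte and smooth muscle and 4 of 4 erythroid markers fell, where 17.2% of tested genes passed lower. In males the counts were 1 of 7, 3 of 8, 2 of 6, 2 of 6 and 4 of 4 for the same lists, where 7.77% passed lower. The 5 macrophage markers had log2 differences of -0.04 to 0.375 and did not pass with the sexes averaged, with sums of 1281 to 1709 in LCHADD and 1243 to 1710.2 in WT. In females 2 of these 5 passed higher, where 16.7% of tested genes did, Cd68 at 0.66 (SE 0.21, limma adjusted p = 0.0232) and Adgre1 at 0.61 (SE 0.21, adjusted p = 0.0329), and neither overlapped between the female groups. In the skeletal muscle list 1 gene was tested, Acta1, and it rose, where 20.3% of tested genes passed higher with the sexes averaged. Its change was 1.78 (SE 0.14, limma adjusted p = 2.28e-07), with 2.93 in females and 0.63 in males. The female change minus the male change was 2.30 (SE 0.29, limma adjusted p = 0.011). In WT, females minus males was -1.48 for Acta1 (SE 0.20, limma adjusted p = 0.00281). Myh4, Myh1 and Tnnt3 of that list, and Tagln, a smooth muscle marker, stayed under 5 normalised reads. The atrial marker Myl4 did not pass, and no adipocyte marker was tested. In bulk tissue, fewer cells of a type, less RNA per cell and lower expression of the marker genes themselves cannot be told apart.

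As a measure chosen after the data were seen, genes were set against the summed markers. Per 1000 endothelial marker reads, Epas1 was at 410.3 to 611 in LCHADD and 523 to 576 in WT, with overlap. Split by sex, it was at 410.3 to 523.8 (median 490.2) in LCHADD females and 522.5 to 556.5 in WT females, which barely overlapped. In males it was at 528.7 to 611 in LCHADD and 566.2 to 575.9 in WT. Per 1000 cardiomyocyte marker reads, Vegfb was at 4.03 to 6.20 in LCHADD and 4.09 to 4.45 in WT, and Egln1 at 7.23 to 9.06 in LCHADD and 8.00 to 9.07 in WT, again with overlap. Split by sex, Egln1 was at 7.23 to 9.06 (median 7.29) in LCHADD females and 8.00 to 8.58 in WT females. The female overlap came from LCHADD female 2 alone. In males Egln1 was at 8.21 to 8.94 in LCHADD and 8.53 to 9.07 in WT, with overlap. Egln3 did not overlap, at 0.674 to 1.35 per 1000 cardiomyocyte marker reads in LCHADD and 1.57 to 1.82 in WT, and neither did Hif1a, at 1.75 to 3.53 in LCHADD and 0.924 to 1.23 in WT. The highest LCHADD value of Egln3, Hif1a, Vegfb and Egln1 on this scale was that of LCHADD female 2, the library with the lowest cardiomyocyte marker sum. Per 1000 endothelial marker reads, Egln3 was at 59.2 to 105 in LCHADD and 127 to 168 in WT, and Hif1a at 153 to 196 in LCHADD and 75.0 to 111 in WT. The Hif1a ratios could not overlap on either scale and so do not address cell make-up. Every LCHADD library had more normalised Hif1a reads, and lower sums of both marker lists, than every WT library. The part of cell make-up in these differences was not tested beyond these ratios.

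**Figure D5:**
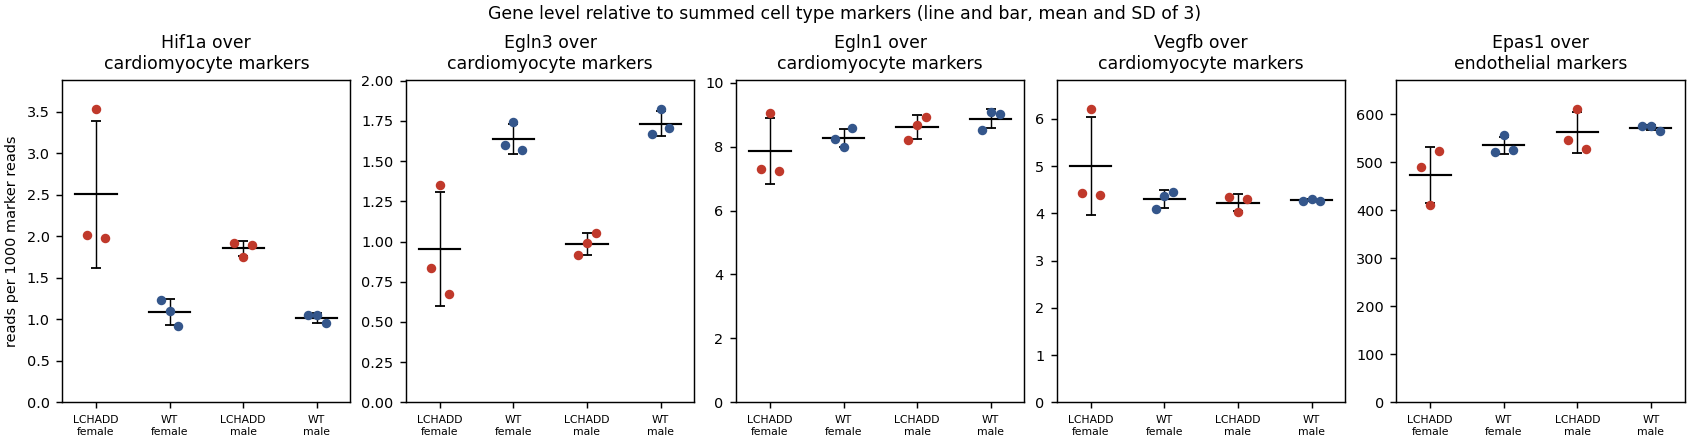
Normalised reads of 5 genes per 1000 summed marker reads (vertical axes from 0) in the 4 groups, LCHADD in red and WT in blue, with points for libraries, a line for the mean and a bar for the SD. Egln3 keeps the genotypes apart, and so does Hif1a, whose ratio could not overlap because its reads were higher and the marker sums lower in LCHADD. Egln1, Vegfb and Epas1 overlap, with 410.3 to 611 for Epas1 in LCHADD.

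Genes with the most similar profile were sought among 10262 tested genes with a mean of at least 50 normalised reads, over the 12 libraries. Profiles nearest to Egln3 were those of Alas1, the entry enzyme of heme synthesis (Pearson r = 0.99, Spearman rho = 0.95), Ak4, a mitochondrial adenylate kinase (r = 0.98, rho = 0.94), and Hcn4, a pacemaker channel gene (r = 0.98, rho = 0.86). All 3 fell in LCHADD, by 0.88, 0.77 and 2.32 on the log2 scale, a direction that follows from their choice by likeness to Egln3. For Hif1a they were Rsph3b (r = 0.98), Eif3a, a subunit of a translation initiation factor (r = 0.97), and Ecpas, a proteasome adaptor (r = 0.96), and for Vegfa they were Samhd1 (r = 0.92), Dyrk1a (r = 0.88) and Gnai3 (r = 0.85). These libraries share the genotype and sex groups, so the points are not independent, and the likeness is given as a description.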

How the data were processed

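RNA was extracted from fresh ventricles with a fibrous-tissue kit, per the labels. The deposited signal is the read count of each gene divided by 1 size factor per library, and this was checked: 100.0% of the values in each library were whole multiples of 1 step, within 0.01, which gave back the reads. Per the submitters' processing notes, build GRCm39, bcl2fastq and DESeq2 were used; the aligner, the counter, the annotation and strandedness are not given in the sources used. Symbols for 51719 of 51912 Ensembl IDs came from GENCODE vM21, and exon lengths from the same annotation on GRCm38.

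Genes with at least 10 normalised reads in at least 3 of the 12 libraries (13865) were tested by limma 3.58.1 with a trend on log2(value + 1), in 1 fit of 4 group means, with Benjamini-Hochberg adjustment over all of them. Alternatives were edgeR 4.0.16 (quasi-likelihood) and DESeq2 1.42.0 on the recovered counts, TMM and nuclear-gene scaling, pseudocounts of 0.5 and 5, other filters, fits on 1 sex or genotype, a replicate block, a minimum of 1.5-fold and leaving out libraries. The genes and lists, and the leaving out of LCHADD female 2 with WT female 3, were chosen with earlier results of these data known. Beyond the 10 genes, genes of each list are named as up to 6 passing ones by smallest adjusted p and up to 3 failing ones by abundance.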

Additional observations from a re-analysis of the deposited data

How the results depend on the processing

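Hif1a, Epas1 and Egln3 kept direction and call in the average and in each sex under every alternative run for single genes. No sign was seen that replicate numbers pair the libraries: 0 of 18 same-numbered pairs had a correlation of deviations over 0.1 (range -0.106 to 0.0491). Of the pairs with different numbers, 1 of 36 did. These correlations cannot show that the libraries were unpaired. With a replicate block 6 of the 10 genes passed with the sexes averaged, 6 in females and 5 in males. The main fit gave the same counts, where 40.8%, 33.8% and 15.5% of all tested genes passed. The shares with the block are not given here. With a minimum of 1.5-fold the counts were 2 with the sexes averaged, 3 in females, 2 in males and 0 for females against males in LCHADD, over all genes 2033, 2461, 1087 and 311, and in the 3 lists 3, 10 and 6. The interaction was called by DESeq2 in 1 of the 10 genes and in 101 genes in all, and in 2 genes in all by edgeR, 2 with the filter at 50 and 12 without LCHADD female 2 and WT female 3. All genes in males came to 3342 with male libraries alone and 3305 without that pair. Females against males gave 0 of the 10 and 82 genes in all with LCHADD libraries alone, and in WT 87 genes in all with DESeq2, 142 with WT libraries alone and 73 without that pair. Scaling by nuclear-gene reads moved the share of female calls that were higher to 59.6%, against 49.3%. Leaving out 1 library put Vegfd anywhere between -0.12 and 0.12, with no call.

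Leaving out 1 library gave 5 to 7 of the 10 genes with the sexes averaged, 5 to 8 in females and 3 to 5 in males. Over all 13865 tested genes it gave 5010 to 6027, 3739 to 5065 and 1315 to 3287 in the same order. For the interaction it gave 0 to 1 of the 10 genes and 0 to 187 over all genes. For females against males in LCHADD it gave 1 to 3 of the 10 and 215 to 1650 over all genes. In WT that comparison gave 17 to 105 over all genes. Signs turned among values that never passed, and these were small apart from those of Hif3a. Without a library, the ranges were -0.228 to 0.0262 for the Hif1a interaction, -0.0866 to 0.108 and -0.0123 to 0.242 for Hif1a by sex in LCHADD and WT, -0.654 to 0.178 for Hif3a in males, -0.0871 to 0.745 for Hif3a by sex in WT, -0.0389 to 0.0775 for Arnt in males, -0.0247 to 0.147 for Arnt by sex in WT, -0.0248 to 0.102 for the Egln2 interaction, -0.10 to 0.0016 for Egln2 by sex in LCHADD, -0.134 to 0.0167 for Vhl in females, -0.0039 to 0.11 for Vhl, -0.0405 to 0.107 for Vegfa and -0.0079 to 0.0456 for Vegfb by sex in WT. Without the pair, Hif1a by sex in LCHADD was -0.0866 and the Egln2 interaction -0.0581, and with nuclear-gene scaling Egln2 by sex in LCHADD was 0.0267 and Vhl in females 0.0025; the cause was not tested. Hif3a, with 12 to 49 reads per group, is limited by depth.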
